A study of Mus musculus with 6 samples.

Results

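The Hox genes are the homeobox transcription factor genes of the Hoxa, Hoxb, Hoxc and Hoxd clusters, and their transcripts were measured here in the developing face of mouse embryos. Every gene whose name in the deposited table was Hox followed by a cluster letter and a number was taken, which gave 37 genes reported here of the 38553 genes listed. Hoxd4 was not analysed here. The tissue was craniofacial tissue microdissected at E12.5, and its poly(A) RNA was sequenced as 6 libraries, each from an independent biological replicate. The 3 controls had the genotype Rbfox2 flox/flox and carried no Cre. The 3 mutants had the genotype Pax3Cre/+:Rbfox2 flox/flox, so that Rbfox2, which codes for an RNA-binding splicing factor, was deleted where Pax3 is active. In the Cre allele the recombinase is inserted in Pax3, and it acts in the neural crest and also in the paraxial mesoderm and its somite derivatives, while other cells taken along with the face, such as surface epithelium and blood, keep the gene. All embryos were of mixed background, and both groups carried the floxed alleles. The mutants alone carried Cre and the Pax3 copy with the insertion, so effects of these and of the Rbfox2 deletion cannot be told apart.

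In vertebrates the Hox genes of a cluster lie on the chromosome in the order in which they are switched on along the body, so that low paralog numbers mark the hindbrain and pharyngeal arches and high numbers the trunk, tail and distal limb. A paralog group is the set of genes that occupy the same place in different clusters. The neural crest that builds the upper face and jaw comes from in front of the Hox domain and carries no Hox code, whereas the crest of the second arch expresses Hoxa2, and the more posterior arches add paralog group 3. Hox proteins bind DNA together with Pbx and Meis cofactors, and Polycomb complexes keep the clusters silent where they are not used.

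The 4 clusters lie, in GRCm38, at chr6:52162417-52260880 (Hoxa), chr11:96194316-96368256 (Hoxb), chr15:102921103-103036852 (Hoxc) and chr2:74668310-74765142 (Hoxd), each range running from the outermost members analysed. To show the start regions of the genes the results turn on, the 250 bases upstream of the annotated start site are given for Hoxa2, Hoxd1 and Hoxd8, the members with the highest mean level, for Hoxd3, whose highest value lay in mutant replicate 1, and for Hoxd12, which was listed at 0 in every sample. The sequences are from RefSeq on GRCm38.p6 and read 5′ to 3′ on the strand of the gene, and 21 of the 37 members had such an entry. Capitals mark matches, on either strand, to the CCAAT box (CCAAT), to the retinoic acid receptor half-site (AGGTCA) and to a site for Pbx with Hox (TGATNNAT), and no capital letters of different motifs overlap.
Hoxa2 (chr6:52164832-52165081, minus strand): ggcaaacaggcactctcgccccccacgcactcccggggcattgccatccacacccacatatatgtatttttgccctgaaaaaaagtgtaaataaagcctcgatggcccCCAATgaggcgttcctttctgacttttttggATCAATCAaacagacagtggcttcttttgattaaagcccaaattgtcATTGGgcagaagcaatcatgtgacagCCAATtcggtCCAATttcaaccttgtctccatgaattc
Hoxd1 (chr2:74762730-74762979, plus strand): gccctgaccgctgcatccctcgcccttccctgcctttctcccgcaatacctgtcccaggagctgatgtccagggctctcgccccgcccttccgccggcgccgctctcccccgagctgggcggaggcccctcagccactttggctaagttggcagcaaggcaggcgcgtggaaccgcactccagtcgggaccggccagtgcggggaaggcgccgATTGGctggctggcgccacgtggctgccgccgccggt
Hoxd8 (chr2:74704365-74704614, plus strand): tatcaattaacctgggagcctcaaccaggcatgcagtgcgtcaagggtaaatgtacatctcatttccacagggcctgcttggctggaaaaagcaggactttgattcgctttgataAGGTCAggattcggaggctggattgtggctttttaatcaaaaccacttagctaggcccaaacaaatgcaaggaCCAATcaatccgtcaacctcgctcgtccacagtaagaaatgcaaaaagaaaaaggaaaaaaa
Hoxd3 (chr2:74711743-74711992, plus strand): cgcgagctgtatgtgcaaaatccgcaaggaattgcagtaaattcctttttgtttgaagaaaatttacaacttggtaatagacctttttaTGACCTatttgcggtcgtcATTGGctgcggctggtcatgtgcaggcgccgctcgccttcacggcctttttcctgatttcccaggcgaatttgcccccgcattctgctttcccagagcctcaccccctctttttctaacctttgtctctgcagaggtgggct
Hoxd12 (chr2:74674763-74675012, plus strand): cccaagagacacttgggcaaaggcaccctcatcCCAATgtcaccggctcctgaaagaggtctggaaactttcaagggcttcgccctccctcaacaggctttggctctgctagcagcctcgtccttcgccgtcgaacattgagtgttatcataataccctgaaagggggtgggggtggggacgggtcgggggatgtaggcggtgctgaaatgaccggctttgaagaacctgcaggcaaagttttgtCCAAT
The Hoxa2 region held 4 CCAAT boxes and a Pbx-Hox site 111 bases before the start. The Pbx-Hox letters were found in 7.68% of 32851 promoter windows of the same length and the CCAAT letters in 33.8%. A half-site of the retinoic acid receptor lay 135 bases before the start of Hoxd8 and 161 bases before that of Hoxd3, and 14% of all windows held these letters. The Hoxd1 region was rich in G and C (71.6%) with 24 CG dinucleotides, whereas the Hoxd8 region had 44.4% and 6, beside medians of 52.4% and 6 over all windows. The silent Hoxd12 lay between them with 55.6% and 10. These matches describe the letters in the windows, and binding was not measured.

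The deleted gene was checked first. Rbfox2 was at 58.4, 65.0 and 61.3 FPKM (sequenced fragments scaled to transcript length and to the size of the library) in control replicates 1 to 3 and at 38.1, 36.3 and 34.3 FPKM in mutant replicates 1 to 3. Every mutant was below every control, with means of 61.6 ± 3.29 and 36.2 ± 1.87 (SD, n = 3), and the log2 fold change of -0.76 ± 0.08 (SE) did not pass adjustment over all genes (limma, adjusted p = 0.218). It passed with the filter above 5 FPKM (every sample of a group) in 2 alternatives added after seeing the data, a term for the replicates numbered 1 (limma, adjusted p = 0.0296) and replicates 2 and 3 alone (-0.82 ± 0.07, limma, adjusted p = 0.0328). The tissue label was borne out by its markers: all 20 genes of a facial mesenchyme list had means of 9.04 FPKM or more, with summed levels of 695 to 738 FPKM in controls and 616 to 737 FPKM in mutants, and forebrain genes were also present at 130 to 276 FPKM and 199 to 222 FPKM. Pax3, a gene of the facial mesenchyme list that holds the Cre allele in mutants, was at 8.83, 11.9 and 11.1 FPKM in controls. In mutants it was at 8.62, 7.59 and 8.36 FPKM, all below every control (log2 fold change -0.36 ± 0.13, SE, limma, unadjusted p = 0.0276). The part of the Cre allele in that difference was not tested. Mutant replicates 1 and 2 expressed Y-linked genes (summed 57.7 and 55.5 FPKM), while the controls and mutant replicate 3 were between 0.0989 and 0.217 FPKM, so sex moved with genotype in part.

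The replicates numbered 1 of both groups stood apart from the other 4 libraries. They lay at -40.0 and -36.6 on the principal component that held 33.8% of the variance, against 15.4 to 22.3 for the others. FPKM values of rarely sequenced genes fall on steps, the value of a whole fragment. In control replicates 2 and 3 and mutant replicates 2 and 3, 87.6% to 88.6% of low values from genes with a single annotated transcript came out as whole fragments within a tolerance of 0.05, for a fitted total of 42050000 to 51550000 fragments. In the replicates numbered 1, only 19.4% and 18.6% did. Evenly spread values would give 10% at a fixed total and fragment length. They would give more here, because both were fitted to raise this share. These 2 libraries shared a step pattern with each other (23.3% of low genes at a common ratio) but not with the rest (3.31% to 4.56%). Their fragment numbers are therefore not given, and the comparison of mutants with controls is also given without them.

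Hox transcripts were scarce in the face and came mostly from the anterior end of the clusters. Counted as detected above 0.1 FPKM, 8 of the 37 genes were detected in all 6 samples, 5 in some samples, and 24 in none. By sample, 8, 11 and 11 genes were detected in control replicates 1 to 3, and 12, 11 and 9 in mutant replicates 1 to 3. Over all genes of the table, 42.2% were detected in all 6 samples, against 21.6% of the Hox genes. A total of 10 Hox genes (27.0%) were listed at 0 in every sample, a smaller share than the 40.2% of all genes. A further 14 had values above 0 that never reached 0.1 FPKM, the highest being 0.0989 FPKM. Only Hoxa2 exceeded 5 FPKM in any sample, and no Hox gene exceeded 5 FPKM in all samples of a group, which was the expression filter of the study.

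**Figure D1:**
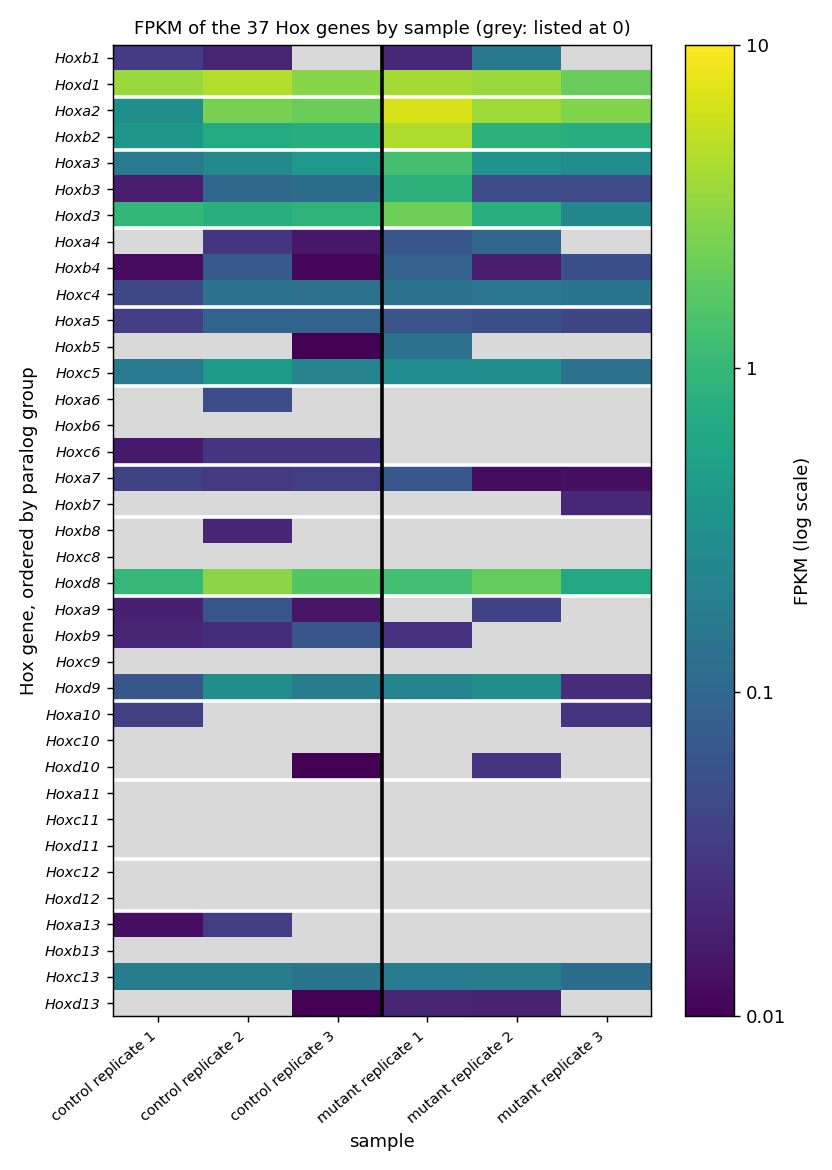
FPKM of each of the 37 Hox genes (rows, ordered by paralog group, white lines between groups) in each sample (columns, controls left of the black line), on a logarithmic colour scale, with grey for values listed at 0. Signal is concentrated in the top 7 rows, paralog groups 1 to 3, with Hoxd8 as the brightest row below them, and all rows of paralog groups 11 and 12 are grey.

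The summed level of all Hox genes was 7.08, 13.4 and 9.79 FPKM in control replicates 1 to 3 and 21.7, 12.6 and 7.33 FPKM in mutant replicates 1 to 3. The groups overlapped, and mutant replicate 1 was the highest of all samples. Paralog groups 1 to 3 made up 66.2% to 76.7% of this sum in controls and 74.9% to 88.5% in mutants. Hoxc was the poorest cluster, with 2.75% to 5.83% of the sum, and 5 of its 9 members (Hoxc8, Hoxc9, Hoxc10, Hoxc11 and Hoxc12) were listed at 0 in every sample.

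**Figure D2:**
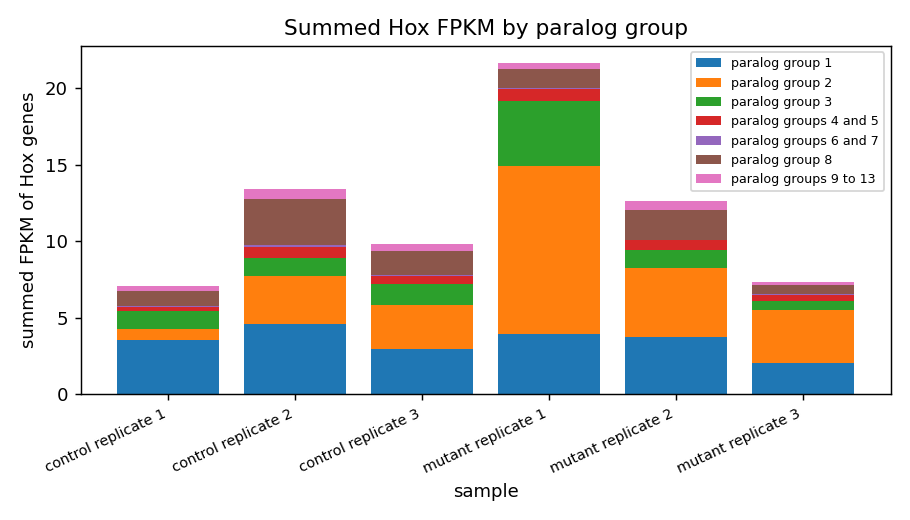
Stacked bars of summed Hox FPKM (vertical axis, from 0) in each of the 6 samples, coloured by paralog group. Paralog group 2 reaches 11.0 FPKM in mutant replicate 1 and 0.705 FPKM in control replicate 1, and paralog group 1 stays between 2.04 and 4.57 FPKM in all samples.

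Paralog group 1 was led by Hoxd1, the most abundant Hox gene on average, which is known from sensory neurons that detect painful stimuli. Hoxd1 was at 3.52, 4.55 and 2.93 FPKM in control replicates 1 to 3 and at 3.92, 3.55 and 2.04 FPKM in mutant replicates 1 to 3. It was the only Hox gene above 1 FPKM in every sample, its highest value was only 2.23 times its lowest, and the groups overlapped. In control replicate 2 its value rested on 386 fragments (exact Poisson 95% interval 348 to 426) and in mutant replicate 3 on 141 (119 to 166), intervals that cover counting error only. Hoxb1, the gene of the rhombomere that makes facial motor neurons, was below 0.1 FPKM in 5 samples, at 0 in both replicates numbered 3, and at 0.162 FPKM in mutant replicate 2.

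Among the Hox genes with a mean above 0.1 FPKM, the groups did not overlap for the genes of paralog group 2 alone. Hoxa2, the gene that gives the second arch its identity, was at 0.315, 2.44 and 2.13 FPKM in control replicates 1 to 3 and at 6.56, 3.69 and 2.73 FPKM in mutant replicates 1 to 3. Control replicate 1 was far below the other controls and mutant replicate 1 far above the other mutants, so both replicates numbered 1 widened the gap. In mutant replicate 2 the value rested on 252 fragments (222 to 285). Hoxb2, which acts with Hoxb1 in facial motor neurons, was at 0.390, 0.705 and 0.741 FPKM in controls and at 4.40, 0.861 and 0.746 FPKM in mutants. Mutant replicate 1 was 5.11 times the next highest sample, and the lowest mutant was barely above the highest control.

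Paralog group 3, which serves the posterior arches, the thymus and the parathyroid glands, had mutant replicate 1 as its highest sample in all 3 genes. Hoxa3 was at 0.174, 0.268 and 0.409 FPKM in controls and 1.29, 0.359 and 0.296 FPKM in mutants. Hoxb3 was at 0.0173, 0.104 and 0.115 FPKM in controls and 0.845, 0.0483 and 0.0488 FPKM in mutants. Hoxd3 was at 0.981, 0.782 and 0.904 FPKM in controls and 2.16, 0.780 and 0.245 FPKM in mutants. The other 2 mutants were within or below the control range for all 3 genes, and Hoxb3 was detected in 3 samples only. Antisense Hoxb3os covers 52.9% of the annotated exon bases of Hoxb3 and 27.3% of those of Hoxb2. Whether strand was used in the quantification is not given in the sources used here, so reads of these genes and Hoxb3os could not be told apart. On the same strand, Gm28230 covers 53.1% of the exon bases of Hoxd3 and Gm28308 15.0% of those of Hoxa2. Neither was among the genes listed, so their reads could not be told apart from those of Hoxd3 and Hoxa2 either.

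Paralog groups 4 to 7 were nearly silent. Hoxc5 was the exception, at 0.166, 0.431 and 0.221 FPKM in controls and 0.284, 0.293 and 0.131 FPKM in mutants, with overlapping groups. Hoxc4 was detected in 5 samples, at 0.0449, 0.141 and 0.133 FPKM in controls and 0.137, 0.155 and 0.148 FPKM in mutants. Hoxa5, a gene of the lung and trachea, was above 0 in all samples and always below 0.1 FPKM, and in the 4 libraries with recovered fragments its values were 8, 7, 4 and 3 fragments. Hoxb5 reached 0.135 FPKM in mutant replicate 1 and was at 0 in 4 of the other samples. Hoxc6 was above 0 in the 3 controls (0.0165, 0.0285 and 0.0294 FPKM) and at 0 in the 3 mutants, a difference between values too low to pass the expression filter. The remaining members Hoxa4, Hoxb4, Hoxa6, Hoxb6, Hoxa7 and Hoxb7 never exceeded 0.0989 FPKM, and Hoxb6 was listed at 0 throughout.

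Paralog group 8 broke the order of the clusters. Hoxd8 had the highest mean level after Hoxd1 and Hoxa2, at 0.998, 3.03 and 1.60 FPKM in controls and 1.23, 1.96 and 0.646 FPKM in mutants, with overlapping groups, while Hoxb8 was at 0.0209 FPKM in control replicate 2 and 0 elsewhere and Hoxc8 was at 0 in all samples. Haglr, the noncoding RNA transcribed in the opposite direction between Hoxd1 and Hoxd3, was at 0.807, 1.88 and 1.19 FPKM in controls and 1.31, 1.50 and 0.648 FPKM in mutants. Control replicate 2 was highest and mutant replicate 3 lowest for Hoxd1, Hoxd8 and Haglr.

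Paralog groups 9 to 13, the genes of the trunk, tail and distal limb, held 16 members, of which 8 were at 0 in every sample. Hoxd9, a neighbour of Hoxd8, was at 0.0642, 0.304 and 0.185 FPKM in controls and 0.219, 0.300 and 0.0240 FPKM in mutants. Control replicate 2 had 30 fragments (20.2 to 42.8) and mutant replicate 3 had 2 (0.242 to 7.22), while the groups overlapped. Hoxc13, known for its role in hair, nails and the papillae of the tongue, was low but even, at 0.185, 0.180 and 0.143 FPKM in controls and 0.175, 0.182 and 0.116 FPKM in mutants, and it was the only member above paralog group 9 detected in any sample. Hoxa9, Hoxb9, Hoxa10, Hoxd10, Hoxa13 and Hoxd13 appeared in some samples at no more than 0.0636 FPKM, and the values of Hoxd13 in control replicate 3 and mutant replicate 2 were 1 and 2 fragments. Hoxc9, Hoxc10, Hoxa11, Hoxc11, Hoxd11, Hoxc12, Hoxd12 and Hoxb13 were listed at 0. For the 5 always-zero genes with a single annotated transcript (Hoxc10, Hoxc11, Hoxc12, Hoxd12 and Hoxb13), 3 fragments would correspond to 0.0251 to 0.0875 FPKM in the 4 libraries with recovered fragments. Levels below that could have been missed in a library at this depth.

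**Figure D3:**
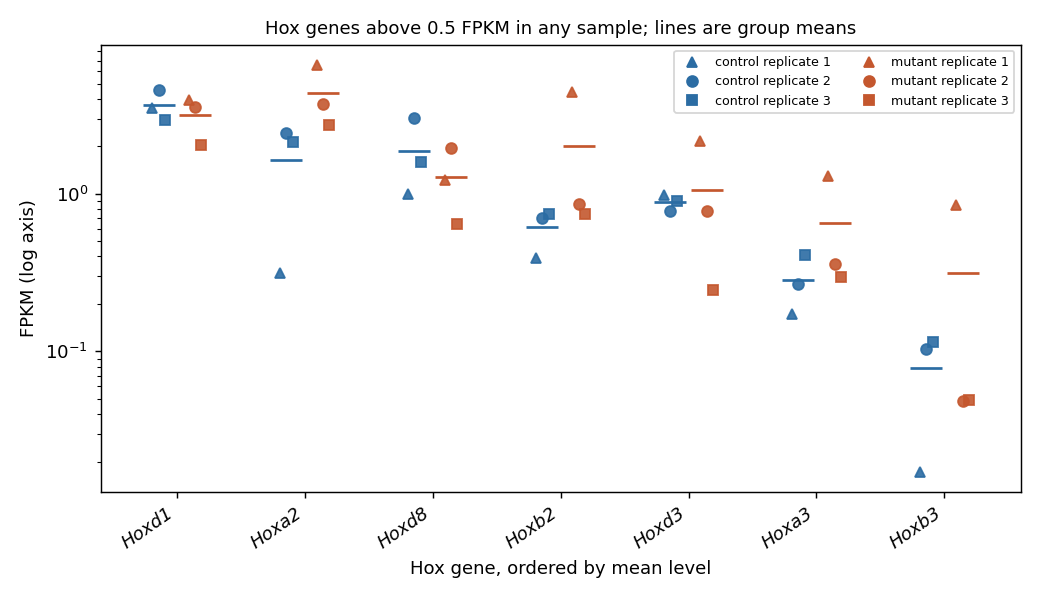
FPKM on a logarithmic axis of the 7 Hox genes above 0.5 FPKM in any sample, with a point for each control (blue) and mutant (orange) replicate and a line at each group mean. Mutants and controls are separate for Hoxa2 and Hoxb2 only, and the triangle of mutant replicate 1 lies above all other points for Hoxa2, Hoxb2, Hoxd3, Hoxa3 and Hoxb3.

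Mutants and controls were then compared across all genes with a mean above 0.1 FPKM, on log2(FPKM + 0.1), a scale that understates the change of low genes. Of the 37 Hox genes, 11 entered this fit, and Hoxb3 did so only through mutant replicate 1. No Hox gene and none of the 17826 genes passed adjustment (limma, Benjamini-Hochberg, 0.0% called). At an unadjusted p under 0.05, 442 genes were called (2.48%), and Hoxa2 was the only Hox gene among them. The count over all genes was 1210 without control replicate 1, 773 without mutant replicate 1, 270 without control replicate 2 and 1054 with the replicate block. Hoxa2 was 2.66 times higher in mutants by group means (1.63 ± 1.15 against 4.33 ± 1.99 FPKM, SD, n = 3), with a log2 fold change of 1.64 ± 0.69 (SE, limma, unadjusted p = 0.0489, adjusted p = 1), and an exact two-sided permutation test gave p = 0.1, the smallest that 3 against 3 samples allow. The call of Hoxa2 depended on the setting. It held with both other scalings, with a pseudocount of 1, with a term for the replicates numbered 1, and without control replicate 2 (log2 fold change 2.11, limma, unadjusted p = 0.0292) or control replicate 3 (2.02, limma, unadjusted p = 0.0359). It was lost with the replicate number as a block (1.64, limma, unadjusted p = 0.0672), and without mutant replicate 2 (1.71, limma, unadjusted p = 0.0889) or mutant replicate 3 (1.92, limma, unadjusted p = 0.0582), where the fold change was no smaller. Without control replicate 1 it was 0.80 (limma, unadjusted p = 0.0613) and without mutant replicate 1 it was 1.30 (limma, unadjusted p = 0.153). With the Y-linked covariate the log2 fold change of Hoxa2 was 1.02 ± 1.03 (SE, limma, unadjusted p = 0.36).

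The size of the Hoxa2 difference lay mostly in the replicates numbered 1. Between mutant replicate 1 and control replicate 1 the log2 difference was 4.01, and among replicates 2 and 3 it was 0.46 ± 0.20 (SE, limma, unadjusted p = 0.0724, adjusted p = 0.568). Hoxb2 had a log2 fold change of 1.15 ± 0.63 (SE, limma, adjusted p = 1) over all samples and 0.13 ± 0.21 without the replicates numbered 1, and its exact two-sided permutation p was also 0.1. Both were higher in every mutant than in every control, a pattern seen in 2 of the 11 Hox genes and in 3.03% of all genes tested, and 0 of the 11 had every mutant below every control, against 3.52%. Among the remaining 9 the exact permutation p was 0.2 or more.

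Of the 11 Hox genes, 5 had a fold change above 0, as did 49.8% of all genes tested. Their median log2 fold change was -0.07 (-0.0006 over all genes tested) and the median size of the change was 0.29 (0.088 over all genes), in genes of far lower level than most. For Hoxd1 the log2 fold change was -0.24 ± 0.27, for Hoxd8 -0.50 ± 0.48 and for Hoxc13 -0.07 ± 0.28 (SE, limma, adjusted p = 1 for each). These differences were smaller than, or about the size of, their standard errors.

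**Figure D4:**
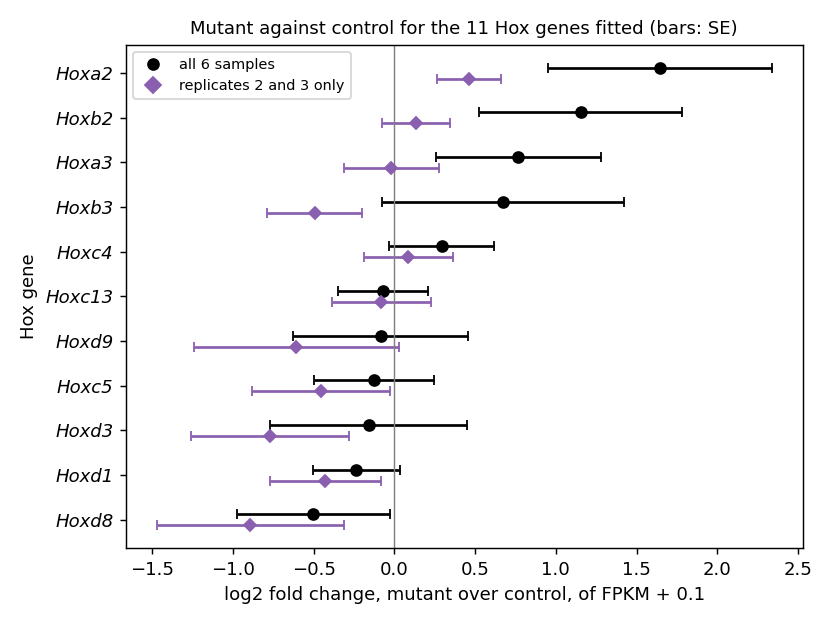
Log2 fold change of mutant over control on FPKM + 0.1 (horizontal axis) for the 11 Hox genes fitted, with standard errors as bars, for all 6 samples (black circles) and for replicates 2 and 3 only (purple diamonds). Hoxa2 moves from 1.64 to 0.46 and Hoxb3 from 0.67 to -0.50 when the replicates numbered 1 are left out.

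Mutant replicate 1 stood out by its high level of paralog groups 2 and 3, though other libraries also held many extremes. Control replicate 2 was highest for 4 of the 11 Hox genes (22.2% of all genes tested). Mutant replicate 3 was lowest for 6 of the 11 (16.5% of all genes) and control replicate 1 for 5 (22.0%). Mutant replicate 1 was the highest sample for 5 of the 11 Hox genes, and for 15.0% of all genes tested. It exceeded the next highest sample more than 2-fold for Hoxb2, Hoxa3, Hoxb3 and Hoxd3, 4 of the 11, whereas 0.527% of all genes tested did so, and no other sample did so for any of the 11. Hoxb3 had to be high there, since it passed the filter on the mean through that sample alone. Among genes whose mean over the other 5 samples was above 0.1 FPKM, mutant replicate 1 was highest for 4 of 10 Hox genes and 14.5% of all genes. It was more than 2-fold above the next sample for 3 of the 10 and 0.27% of all genes. Most genes in this background were far more abundant than the Hox genes, and no share among genes of like level was taken. Antisense RNAs of the same regions did not all follow. Hoxb3os was at 1.77 FPKM in mutant replicate 1 and between 0.121 and 0.451 FPKM elsewhere, and Hoxaas2, an antisense RNA of the Hoxa3 locus, was at 2.74 FPKM against 0.419 to 1.04 FPKM. Hoxd3os1, which overlaps exons of Hoxd3, was at 0.0371 FPKM in mutant replicate 1 and 0.0159 to 0.396 FPKM elsewhere, and Hoxaas3, which overlaps exons of Hoxa3, was at 0.00952 FPKM and 0 to 0.217 FPKM. Hoxd1 and Hoxd8 were not highest in mutant replicate 1 either, with mutant replicate 1 at 0.861 and 0.407 of the highest other sample.

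Some markers of the hindbrain and ear were also highest in the same library. Of 13 hindbrain and brainstem markers tested, 9 were highest in mutant replicate 1, as were 15.0% of all genes tested. Without Phox2a, which passed the filter through that sample alone, it was 8 of 12. Of all genes passing the filter without that sample, 14.5% were highest there. The summed level of all 15 markers was 107 FPKM in mutant replicate 1, 72.9 and 82.4 FPKM in the other mutants and 71.6 to 83.7 FPKM in controls. No marker was at 0 in all samples. Mab21l2 had the widest gap of these markers, at 57.0 FPKM against 35.3 to 44.4 FPKM, and weighed heavily in that sum. Tlx3, Lhx1 and Lhx5 were only 1.065, 1.064 and 1.085 times the next highest sample. Lbx1, a gene of dorsal interneurons and of migrating muscle precursors, was at 2.77 FPKM against 0.11 to 0.571 FPKM. Tbx20, which is expressed in cranial motor neurons, was at 0.888 FPKM against 0.120 to 0.250 FPKM. Egr2, which regulates Hox genes in the hindbrain segments, was at 0.237 FPKM against 0.120 to 0.478 FPKM. Of 10 otic epithelium markers, 7 were highest in mutant replicate 1, beside the 15.0% of all genes. Without Pax8, Otog and Otol1, which passed the filter through that sample alone, it was 4 of 7, beside the 14.5%. Among these, Dlx5 and Tbx1 were only 1.032 and 1.213 times the next highest sample, and Oc90 and Pax2 2.49 and 4.43 times. The summed otic level was 81.8 FPKM in mutant replicate 1, 55.5 and 53.7 FPKM in the other mutants and 44.1 to 57.7 FPKM in controls. Pax8 was at 1.31 FPKM against 0.0232 to 0.0640 FPKM. Oc90, which codes for a protein of the otoconia, was at 0.0829, 5.04 and 0.0631 FPKM in controls and 25.4, 10.2 and 8.38 FPKM in mutants, and every mutant was above every control. Most of the gap in the otic sum between mutant replicate 1 and the other samples lay in Oc90. Oc90, Pax2 and Otol1, 3 of the 10 otic markers, were higher in mutants at an unadjusted p under 0.05 (log2 fold changes of 4.61, 1.45 and 1.36, limma, adjusted p = 1 for each). Over all genes tested, 1.01% were higher in mutants at that level. Otol1 was fitted only because of its value in mutant replicate 1. Evx1 and Evx2, homeobox genes that flank the posterior ends of the Hoxa and Hoxd clusters and mark interneurons, were at 1.72 and 0.659 FPKM, against 0.0170 to 0.156 FPKM and 0 to 0.0212 FPKM, and both passed the filter on the mean through that sample alone, while Hoxa13 was at 0 and Hoxd13 at 0.0205 FPKM in that library. The part of such cells in the Hox values was not tested. In bulk tissue, fewer cells of a type and less RNA per cell cannot be told apart.

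Lists of other cell types were summed in the same way. The 13 spinal cord and trunk genes summed to 44.1 to 50.6 FPKM in controls and 34.8 to 50.8 FPKM in mutants, with Cdx2 at 0 throughout, and the 11 blood progenitor genes to 87.4 to 96.8 and 91.7 to 97.3 FPKM. Macrophage genes summed to 56.6 to 67.6 and 56.9 to 71.6 FPKM, endothelial genes to 105 to 129 and 110 to 120 FPKM, and erythroid genes, the most variable in level, to 5622 to 11136 and 7581 to 11536 FPKM. Muscle genes summed to 172 to 381 FPKM in controls, highest in control replicate 2, and 166 to 227 FPKM in mutants. The sums of controls and mutants overlapped for all these lists.

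**Figure D5:**
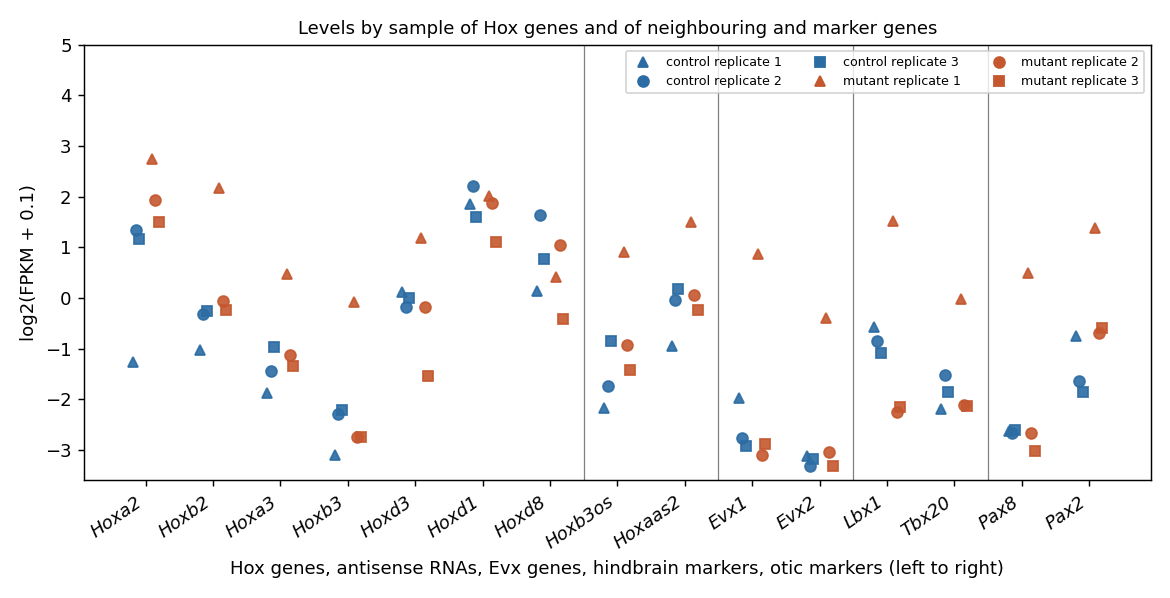
Log2(FPKM + 0.1) by sample for 7 Hox genes, 2 antisense RNAs, the Evx genes, 2 hindbrain markers and 2 otic markers, separated by grey lines. Mutant replicate 1 (orange triangle) is the highest point for every gene shown except Hoxd1 and Hoxd8. The antisense RNAs and markers shown were chosen after their values were seen, as high in that library. Evx1, Evx2 and Pax8 passed the filter on the mean through it alone. Listed genes that were not highest there, among them Egr2, Hoxd3os1 and Hoxaas3, are not shown.

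Of 24 noncoding RNAs listed for the clusters, 21 were matched and 7 entered the fit, and none passed at an unadjusted p under 0.05. Halr1, which lies beyond the anterior end of the Hoxa cluster, had the smallest p and was at 0.0974, 1.07 and 0.702 FPKM in controls and 1.28, 1.16 and 1.15 FPKM in mutants, a log2 fold change of 1.18 ± 0.61 (SE, limma, adjusted p = 1). Control replicate 1 was low, as for Hoxa2, and every mutant was above every control. Hotairm1, a noncoding RNA of the anterior Hoxa cluster, varied widely, at 0.541, 2.30 and 0.0434 FPKM in controls and 1.36, 2.07 and 0.593 FPKM in mutants. Hotair, Hottip and Hoxa11os, from the posterior parts of the Hoxc and Hoxa clusters, were listed at 0 in every sample, as were the 6 microRNA genes of the clusters, whose mature products poly(A) libraries do not capture. Of the 15 neighbouring genes fitted, none passed, and the 2 most abundant, Atp5g3 beyond the Hoxd cluster and Cbx1 beyond the Hoxb cluster, were at 394 to 422 FPKM and 111 to 135 FPKM over all samples. Skap1, the neighbour with the smallest p, was at 0.694, 0.287 and 0.443 FPKM in controls and 0.516, 0.780 and 0.599 FPKM in mutants.

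The machinery on which Hox proteins and clusters depend was abundant in the same samples. All 9 Hox cofactor genes were expressed, with summed levels of 305 to 379 FPKM in controls and 351 to 375 FPKM in mutants, and none passed at an unadjusted p under 0.05. Meis2 was at 61.0 to 102 FPKM and Pbx2 at 76.8 to 98.2 FPKM over all samples. Meis1, with the smallest p, was at 17.2, 23.6 and 23.3 FPKM in controls and 27.6, 24.5 and 25.4 FPKM in mutants, and every mutant was above every control. Pbx3, next by p, was at 31.0 to 40.8 FPKM in controls and 39.5 to 40.8 FPKM in mutants. Of 11 activating regulators fitted, none passed. Rarg and Rxra, receptors for retinoic acid, were at 40.9 to 60.2 and 28.6 to 33.0 FPKM, and Aldh1a2, which makes retinoic acid, at 24.8, 36.9 and 33.0 FPKM in controls and 25.2, 25.7 and 24.8 FPKM in mutants. With the replicate block Aldh1a2 had a log2 fold change of -0.30 (limma, unadjusted p = 0.0387, adjusted p = 0.836). Gbx2, a homeobox gene of the anterior hindbrain, was at 2.09, 0.608 and 0.665 FPKM in controls and 0.925, 2.30 and 1.27 FPKM in mutants, with overlapping groups. The posterior activators Cdx1, Cdx2 and Cdx4 were at or near 0, with a highest value of 0.114 FPKM for Cdx1 in mutant replicate 1.

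All 18 genes of the Polycomb list, which includes 2 demethylases that oppose it, were fitted. Rbbp4 was at 118 to 134 FPKM and Phc2 at 102 to 122 FPKM, and Ezh2, the main methyltransferase, at 82.6 to 117 FPKM, all with overlapping groups. Only Kdm6a, an X-linked demethylase that removes the Polycomb mark, passed at an unadjusted p under 0.05, beside the 2.48% of all genes. It was at 15.3, 16.3 and 15.0 FPKM in controls and 11.5, 9.18 and 14.7 FPKM in mutants, a log2 fold change of -0.42 ± 0.17 (SE, limma, adjusted p = 1). The mutants with Y-linked expression were the 2 lower ones. Kdm6a escapes X inactivation, and its part in that difference and that of genotype cannot be told apart. Ezh1, next by p, was at 5.73, 5.34 and 5.28 FPKM in controls and 4.83, 4.14 and 4.70 FPKM in mutants, and it passed only with the replicate block (-0.26, limma, unadjusted p = 0.0421, adjusted p = 0.836).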

How the data were processed

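RNA was measured in 3 control and 3 mutant samples, and the labels gave each sample's group and number. Per the labels and the study's methods, the authors made stranded poly(A) libraries sequenced as paired ends, checked reads with FastQC 0.11.4, aligned them with STAR to GRCm38 and obtained FPKM with Cuffdiff. The deposited FPKM values were used as they stand, the tables of single samples held the same values as the joint table, and 95.0% of the gene identifiers were found in GENCODE M21 (GRCm38). The files hold no counts, so depth was read from the steps of low FPKM values (genes with 1 annotated transcript of at least 1000 bases), and intervals cover counting error only. The Hox genes and all lists were chosen with earlier results of these data known. Named were all Hox genes, with values per sample for those above 0.5 FPKM in any sample, and of each list on the clusters and their regulators the 2 genes with the smallest p and the 2 most abundant. Other genes (the remaining Hox genes with values, Ezh2, Cdx genes, Egr2, and the markers and antisense RNAs high in mutant replicate 1) were chosen after their values were seen. Some items, among them a Hox gene, are not reported here and were left out of the counts and sums. limma 3.58.1 in R 4.3.3 was fitted with an intensity trend on log2(FPKM + 1) for the 10061 genes above 5 FPKM in all samples of a group and on log2(FPKM + 0.1) for the 17826 genes with a mean above 0.1 FPKM, with Benjamini-Hochberg adjustment at 0.05, and was tested on simulated data. Deviations of samples with the same number correlated at 0.319, 0.138 and 0.170 for numbers 1 to 3, and those of samples of different numbers at -0.285 to 0.155. Mutant replicate 2 correlated slightly more with control replicate 3 (0.155) than with control replicate 2, so the pairing was not clear for number 2. Deviations from a group mean cancel out, so the correlation of number 1 pushes those among numbers 2 and 3 upward together. The positive sign for numbers 2 and 3 is therefore no separate evidence of pairing. The number was treated as pairing the samples in an alternative with a replicate block. The pairing comes from the data and not from the labels. The other alternatives were scaling, pseudocounts, filters, a Y-linked covariate, and leaving out each sample, and 2 on the replicates numbered 1 were added after seeing the data.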

Additional observations from a re-analysis of the deposited data

How the results depend on the processing

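The number of Hox genes detected in all samples was 8 at 0.1 FPKM, 14 above 0, 2 above 0.5 and 1 above 1 FPKM, between 8 and 9 when a sample was left out, and 9 in replicates 2 and 3. No Hox gene passed adjustment in any setting run. Over all genes, the count past an adjusted p of 0.05 (limma) was 0 in both fits. Leaving out a sample gave 0 to 1 with the filter above 5 FPKM and 0 to 7 with the filter on the mean, the higher counts without mutant replicate 3. With the first filter it was 3 with a term for the replicates numbered 1 and 4 in replicates 2 and 3, and with the second it was 5 with the Y-linked covariate. At an unadjusted p under 0.05 the count of Hox genes, 1 (Hoxa2), became 0 with the replicate block, without the intensity trend, with a pseudocount of 0.01, with a mean above 1 FPKM and in replicates 2 and 3. It ranged from 0 to 1 when a sample was left out, and was 1 without a filter, where the gene was Hoxc6 (limma, unadjusted p = 0.0360). The cause was not tested. With the Y-linked covariate it was 2, Hoxd1 (log2 fold change -0.83) and Hoxd3 (-1.57), both lower in mutants, and Hoxb3 turned to -0.28. With that covariate Hoxa2 fell from 1.64 to 1.02, Hoxb2 from 1.15 to 0.23 and Hoxa3 from 0.77 to 0.0553. Hoxd3 turned to 0.0201 with a pseudocount of 1. In replicates 2 and 3, Hoxb3 and Hoxa3 turned to -0.50 and -0.0209. With a sample left out, log2 fold changes ranged from -0.22 to 1.12 for Hoxb3, -0.14 to 0.0523 for Hoxc13, -0.34 to 0.16 for Hoxc5, -0.41 to 0.0447 for Hoxd1, -0.84 to 0.52 for Hoxd3 and -0.43 to 0.42 for Hoxd9. Hoxa2, Hoxb2, Hoxa3 and Hoxc4 stayed above 0 and Hoxd8 below 0 when any sample was left out. The replicate block changed the call of no other Hox gene. Over all 17826 genes it called 1054, against 442 without it. Among the listed genes it added Aldh1a2 and Ezh1 of the lists on the clusters and their regulators, and Lhx1 and Lhx5 of the hindbrain list, both higher in mutants. It also added Meox1 and Pax1 of the trunk list, both lower, and Tal1, Hba-a2 and Hbb-bh1 of the blood lists, all higher, and lost Spi1. With it 6 of 13 muscle genes were lower in mutants where 1 was. That 1, also among the 6, was Pax3, the gene that holds the Cre allele. Depth limits the low values, where a few fragments decide a level, and 3 samples a group limit every comparison.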
